A study of Mus musculus with 162 samples.

Results

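Whole cheek skin of mice lacking the TSLP receptor was examined on day 8 of the MC903 model of atopic dermatitis. The members were the libraries labelled as skin, genotype TSLPR.KO, not injected and Day_8, and there were 5 of them (3 MC903 and 2 ethanol) among 70 skin libraries and 162 libraries in the whole series. The study measured poly(A) RNA by single-end sequencing in skin and in nervous tissue after MC903 or vehicle, and it set skin and ganglia of TSLPR KO mice beside those of mice depleted of neutrophils to learn how these cells contribute to itch. All mice of the groups used here were adult male C57BL/6 that received 20 µL of 0.2 mM MC903 in ethanol, or ethanol alone, on the shaved cheek once daily, with no injection. The TSLPR KO line carried the Crlf2tm1Jni allele in every cell and had been backcrossed onto C57BL/6, whereas the wild-type mice came from commercial suppliers and were raised in-house, so that littermate controls are not stated. Comparison groups were 5 wild-type day 8 libraries (2 MC903 and 3 ethanol) whose deposited names carried the same library series and lane as the TSLPR KO libraries (the lane-matched wild-type), 6 further wild-type day 8 libraries of another series (3 and 3) and 7 TSLPR KO libraries of day 12 (4 MC903 and 3 ethanol).

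MC903 (calcipotriol) is a vitamin D analog that, applied to mouse skin, drives keratinocytes to make thymic stromal lymphopoietin (TSLP), an epithelial cytokine. TSLP acts on immune cells and sensory neurons through a receptor made of a chain encoded by Crlf2 together with the interleukin-7 receptor chain encoded by Il7r, and it promotes type 2 immunity, in which interleukin-4 and interleukin-13 from T cells, basophils and innate lymphoid cells act on epithelium and macrophages. In atopic skin this goes with a thickened and disordered epidermis, infiltrating leukocytes and itch.

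The 5 TSLPR KO libraries held 27210839 to 34815587 reads on genes, and the lane-matched wild-type libraries 29233248 to 37263560. Reads outside annotated genes made up 18.17% in MC903 replicate 1 and 12.14% at the lowest in the other 4 TSLPR KO libraries. All levels below are in cpm, the count of a gene relative to the total reads on genes of its library after scaling by the trimmed mean of M-values, and they are not corrected for gene length, so they compare a gene between libraries and not genes with each other. The summed level of 9 epidermal identity markers, such as the basal keratin genes Krt5 and Krt14, was 9887 to 15734 cpm with MC903 and 7184 and 10132 cpm with ethanol, so the defining genes of epidermis were abundant in all 5 libraries. Other tissues varied between libraries of the same group: 23 hair genes summed to 8476, 39803 and 24432 cpm with MC903 and to 8422 and 50246 cpm with ethanol, and 20 skeletal muscle genes summed to 6156, 7254 and 4200 cpm with MC903 and to 17997 and 9582 cpm with ethanol. None of the 20 muscle genes passed the edgeR quasi-likelihood test in TSLPR KO skin, with a median log2 fold change of −1.19, although 18 were lower at an unadjusted p under 0.05 and 10 by DESeq2, whereas all 20 passed as lower with MC903 in wild-type skin. Glandular RNA was seen in 1 library, with the salivary gene Bpifa2 at 18.9 cpm in MC903 replicate 2 and at 0.0325 to 1.45 cpm in the other 4. The part of these tissues in the results was not tested.

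Crlf2 (chr5:109554709-109558993, mm10) was nearly absent from every TSLPR KO library. It was at 0.193, 0.212 and 0.188 cpm with MC903 and at 0.0585 and 0.26 cpm with ethanol, against 7.18 and 4.02 cpm with MC903 and 2.19, 3.25 and 2.28 cpm with ethanol in the lane-matched wild-type. The 2 genotypes did not overlap, so no library went against its label. In ethanol skin the log2 difference was −4.04 (SE 0.603), but at this low level the p adjusted over all genes was 0.238 by the edgeR quasi-likelihood test and 0.0283 when all 6 wild-type ethanol libraries entered. Il7r, which encodes the partner chain, was at 7.4, 5.76 and 5.73 cpm with MC903 and 10.9 and 5.85 cpm with ethanol in TSLPR KO skin, with overlapping groups.

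Skin without the TSLP receptor still changed with MC903. Of 24292 genes tested, 594 passed at an adjusted p under 0.05 (2.45% of those tested), 318 higher (1.31%) and 276 lower (1.14%). Of the 594 genes, 589 exceeded 2-fold and 94 exceeded 16-fold. In lane-matched wild-type skin 1514 of 2258 calls exceeded 2-fold. With 3 and 2 libraries small changes could hardly pass, so these numbers do not measure the size of the response as a whole. The median log2 fold change of all genes, which the scaling holds near 0, was 0.003. The plot of all genes shows the distribution of fold changes. Nothing in the labels says whether libraries of a group came from separate animals, so the p-values measure the spread between these libraries. The number of calls rested on which libraries entered: it was 179 without MC903 replicate 1, 365 without MC903 replicate 2, 326 without MC903 replicate 3, 334 without ethanol replicate 1 and 822 without ethanol replicate 2, and the share of higher genes among the calls, 53.5% with all 5 libraries, was 73.7% without MC903 replicate 1 and 32.4% without ethanol replicate 2. Of 106 genes followed one by one that passed, 61 still passed whichever of the 5 libraries was dropped, and none changed direction in any of them.

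**Figure D1:**
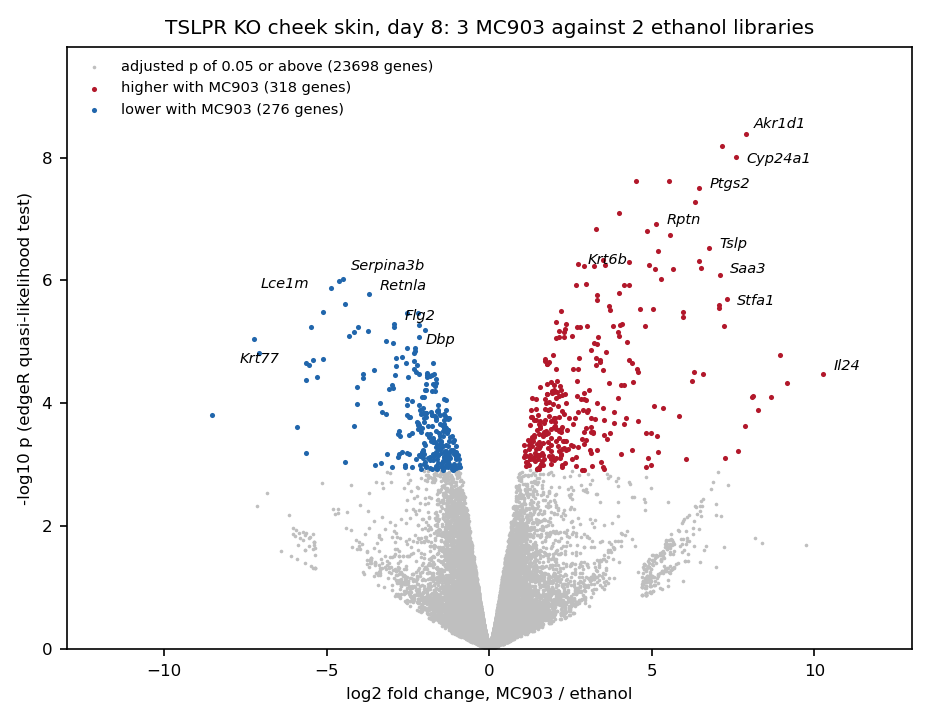
Log2 fold change of MC903 over ethanol (x axis) against −log10 of the unadjusted p of the edgeR quasi-likelihood test (y axis) for each of the 24292 genes tested in day 8 TSLPR KO skin, 3 MC903 against 2 ethanol libraries. Red points are the 318 genes that were higher and blue points the 276 that were lower at an adjusted p under 0.05, with Akr1d1, Cyp24a1, Ptgs2 and Tslp at the top right and Serpina3b, Lce1m, Krt77 and Retnla on the left.

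The same test within the lane-matched wild-type skin called 2258 of 24128 genes (9.36%), 1266 higher (5.25%) and 992 lower (4.11%). Of the 594 calls of TSLPR KO skin, 454 (76.4%) were also called in wild-type skin, 453 of them in the same direction, and these made up 20.1% of the wild-type calls. The 2 comparisons share no library, but they differ in the number of libraries per treatment, and a gene called in one genotype and not in the other was not thereby shown to differ between them. That difference was tested separately and is given after the gene groups.

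The genes with the smallest p in TSLPR KO skin included direct responders to vitamin D. Cyp24a1 encodes the enzyme that degrades active vitamin D and is the standard target of the vitamin D receptor. It was at 1469, 1795 and 1731 cpm with MC903 and at 9.72 and 7.54 cpm with ethanol, a 192-fold increase (log2 7.59, SE 0.413, adjusted p = 7.8e-05). S100g, which encodes the vitamin D-dependent calcium-binding protein calbindin-D9k, was at 10.3, 8.06 and 4.01 cpm with MC903 and at 0 and 0.0974 cpm with ethanol, so that the ratio of its counts was 162 with an exact 95% interval for counting error of 55.2 to 787. The 3 MC903 libraries thus stood far above both ethanol libraries for each gene. These were the 2 of 10 vitamin D receptor and feedback genes that rose, and none fell. Vdr, the receptor itself, was at 189, 215 and 272 cpm with MC903 and 223 and 306 cpm with ethanol, with overlapping groups. Cyp24a1 also rose in wild-type skin, from 16.1 to 18.5 cpm with ethanol to 1942 and 2240 cpm, and its effect was not shown to differ between genotypes (interaction log2 0.66, adjusted p = 0.54).

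Akr1d1, which encodes a steroid reductase, had the smallest p of all genes, at 198, 229 and 193 cpm with MC903 and 1.11 and 0.617 cpm with ethanol (236-fold, log2 7.88, SE 0.392, adjusted p = 7.8e-05). Ptprz1, a receptor-type phosphatase gene, was at 182, 187 and 191 cpm with MC903 and 9.07 and 7.28 cpm with ethanol (log2 4.51, SE 0.271). The increase of both was the same in every MC903 library to within a narrow range. Ecel1, which encodes an endopeptidase known from injured neurons, rose by log2 6.32, Sh2d5, which encodes an SH2-domain adaptor, by 4.83, and Tmprss11b, which encodes a transmembrane serine protease of epithelia, by 5.202. All 5 genes passed whichever library was dropped, and each was also called in wild-type skin, where the log2 fold changes were 6.27, 4.29, 4.94, 5.83 and 3.74 in the order given.

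The alarmin cytokines, which stressed keratinocytes release, rose without the receptor for the best known of them. Tslp was at 219, 116.6 and 84 cpm with MC903 and at 1.58 and 0.974 cpm with ethanol, a 108-fold increase (log2 6.76, SE 0.535, adjusted p = 5.5e-04). In the lane-matched wild-type it was at 117.2 and 130.7 cpm with MC903 and at 1.68 to 2.57 cpm with ethanol, and the effect was not shown to differ between genotypes (interaction log2 0.95, SE 0.517, adjusted p = 0.595). The other 6 wild-type libraries gave a different picture, with 4.83, 15.1 and 5.24 cpm with MC903. Areg, which encodes the epidermal growth factor receptor ligand amphiregulin, was at 58.4, 32.6 and 24.8 cpm against 3.45 and 6.92 cpm (log2 2.90, adjusted p = 0.00909), and Il1a was at 40.5, 36.6 and 32.7 cpm against 14.3 and 12.8 cpm (log2 1.43, adjusted p = 0.0104). In all, 3 of 7 tested genes for alarmins and their receptors rose and none fell, with a median log2 fold change of 1.31. All 3 passed in each fit without a library.

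Il33, the remaining major alarmin, did not reach the threshold. It was at 73.2, 64.9 and 56.9 cpm with MC903 and at 34.9 and 17.2 cpm with ethanol (log2 1.31, SE 0.315, adjusted p = 0.0709), and without ethanol replicate 1 the value was 1.94 with an adjusted p of 0.0196. The groups did not overlap, and the DESeq2 Wald test, run as an alternative, gave an adjusted p of 0.00491. In wild-type skin Il33 rose from 19.7 to 21.5 cpm to 128.5 and 163.6 cpm (log2 2.83, adjusted p = 7.4e-06). Its effect was smaller in TSLPR KO skin at an unadjusted p of 0.0011 by the edgeR quasi-likelihood test. That difference did not pass after adjustment (interaction log2 −1.51, SE 0.361, adjusted p = 0.255), which does not show it to be absent. For the interaction, DESeq2 called 1 gene of the alarmin list more negative in TSLPR KO skin. The study reported that the rise of Il33 depended on both neutrophils and TSLPR. Among interleukin-1 family genes 4 of 19 rose (Il1a, Il1b, Il36b and Il36g) and 1 fell, Il1r2, which encodes a decoy receptor. Il1b was at 45.1, 22.8 and 11 cpm with MC903 and 2.17 and 1.17 cpm with ethanol (log2 3.96, adjusted p = 0.0103).

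**Figure D2:**
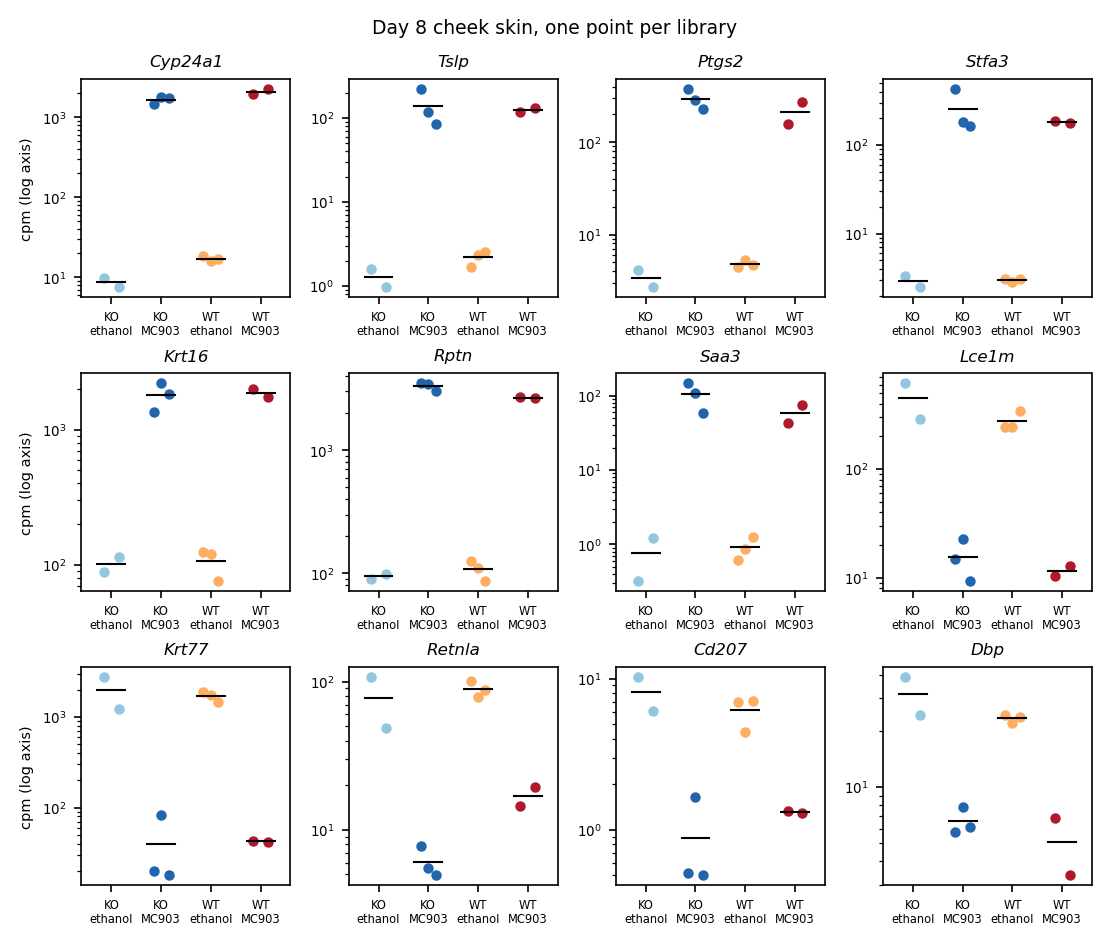
Level in cpm (y axis, log scale) of 12 genes in each day 8 library, grouped on the x axis as TSLPR KO ethanol (2 libraries), TSLPR KO MC903 (3), lane-matched wild-type (WT) ethanol (3) and WT MC903 (2). Points are libraries and black bars are group means. Cyp24a1, Tslp, Ptgs2, Stfa3, Krt16, Rptn and Saa3 were higher and Lce1m, Krt77, Retnla, Cd207 and Dbp lower with MC903 in TSLPR KO skin, with no overlap between its 2 groups for any of the 12.

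Genes of the cornified layer were among those called. The epidermal differentiation complex is a cluster of genes on chromosome 3 for proteins that build the cornified envelope, and 15 of its 49 tested members rose and 3 fell (8 to 18 and 2 to 4 when a library was left out), with a median log2 fold change of 0.78, or 0.72 with the gene absent from all libraries of a group set at its bound. The gene for repetin, Rptn, was at 3483, 3471 and 3002 cpm with MC903 and 90.9 and 99.3 cpm with ethanol (log2 5.13, SE 0.367, adjusted p = 3.3e-04). Sprr2g, of the small proline-rich family, was at 22.2, 18.7 and 10.5 cpm against 0.439 and 0.227 cpm (log2 5.65), and the late cornified envelope gene Lce3d at 25.1, 14.3 and 21.2 cpm against 0.878 and 1.66 cpm (log2 3.996). The other genes that rose were Flg, Sprr1b, Sprr2a3, Sprr2b, Sprr2d, Lce1e, Lce1g and the Lce3 members Lce3a, Lce3b, Lce3c, Lce3e and Lce3f. The 3 that fell were Lce1m, Flg2 and Lor: Lce1m was at 14.8, 22.9 and 9.33 cpm with MC903 and 616 and 292 cpm with ethanol (29.1-fold lower, adjusted p = 9.7e-04). Flg2, for a filaggrin-like protein, was at 152, 188 and 133.2 cpm against 1492 and 896 cpm (7.61-fold lower, adjusted p = 0.00211). The 5 genes given with values passed in every fit without a library. In wild-type skin 29 of 49 members rose and 3 fell. Of 22 genes for keratinocyte junctions none passed in TSLPR KO skin, with 3 higher and 2 lower at an unadjusted p under 0.05 and 1 higher by DESeq2.

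Keratin genes moved in both directions. The stress keratin gene Krt6b was at 2449, 3181 and 3665 cpm with MC903 and 67 and 116.6 cpm with ethanol (33.9-fold, adjusted p = 6.4e-04), and Krt16 at 1339, 2189 and 1836 cpm against 88.9 and 114.9 cpm (17.6-fold, adjusted p = 8.8e-04). Krt6a rose by log2 3.96 and the basal keratin gene Krt14 by 2.13. Krt77, which marks suprabasal epidermis and sweat ducts, was at 19.8, 82.5 and 18 cpm with MC903 and 2752 and 1217 cpm with ethanol (49.5-fold lower, SE 0.731 on the log2 scale, adjusted p = 0.00468). Krt2 fell too, so that 4 of 20 keratin genes rose and 2 fell, with a median of 0.24. Krt6a, Krt6b and Krt16 passed whichever library was left out, whereas Krt77 lost its call without MC903 replicate 1 (adjusted p = 0.0657) and Krt14 passed only without that library (adjusted p of 0.0524 to 0.0707 without each of the others). For all 4 stress and basal keratins the wild-type fold changes lay close to those in TSLPR KO skin, with log2 values of 5.198 for Krt6b, 4.11 for Krt16, 4.28 for Krt6a and 2.21 for Krt14.

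Proteases of the epidermis and their inhibitors rose together. Kallikreins cleave the junctions of corneocytes, and 9 of 21 tested kallikrein, protease and inhibitor genes rose and none fell (6 or 7 without a library, median 0.79). Klk13 was at 109 cpm in the lowest of the 3 MC903 libraries and at 6.09 and 8.97 cpm with ethanol (15.9-fold, adjusted p = 2.5e-04). Klk9 rose by log2 2.99, Klk6 by 2.36 and Klk8 by 2.56, and of the inhibitors Spink12 rose by 4.63 and Slpi, the secretory leukocyte peptidase inhibitor gene, by 3.28. All 6 passed in each fit without a library.

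Serpins and stefins, inhibitors of serine and cysteine proteases, stood out by the size of their changes: 12 of 22 rose (9 to 12 without a library) and none fell, with a median log2 fold change of 3.20. Stfa1 was at 352, 115.9 and 92.6 cpm with MC903 and 0.966 and 1.4 cpm with ethanol (157-fold, SE 0.717 on the log2 scale, adjusted p = 0.00129). Stfa3 was at 424, 184 and 166 cpm against 3.37 and 2.5 cpm (86.99-fold, adjusted p = 6.4e-04), and BC100530 at 650, 203 and 185 cpm against 3.19 and 1.92 cpm (log2 7.06). MC903 replicate 1 was the highest library for each of the 3. Stefin genes are near-identical copies, so reads may have been split or lost between them and the value of a single copy is uncertain.

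Antimicrobial genes rose in 9 of 16 cases, with none lower (4 to 9 higher without a library) and a median of 2.88, or 2.41 with a gene absent from a group set at its bound. Saa3, for an acute-phase protein, was at 146, 108 and 59.2 cpm with MC903 and 0.322 and 1.23 cpm with ethanol (136-fold, adjusted p = 7.7e-04). Defb14, for a beta-defensin, was at 80.2, 27.7 and 27.7 cpm against 0.936 and 0.487 cpm (log2 5.96), and Lcn2, for the iron-binding lipocalin-2, at 13.2, 14.9 and 14.9 cpm against 4.24 and 2.47 cpm (log2 2.08). Lcn2 lost its call without MC903 replicate 1 (adjusted p = 0.0521).

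Lipid mediators and retinoid handling were represented by few but strong calls. Ptgs2, which encodes the inducible cyclooxygenase of prostaglandin synthesis, was at 374, 288 and 230 cpm with MC903 and 4.1 and 2.7 cpm with ethanol (86.8-fold, SE 0.398 on the log2 scale, adjusted p = 1.3e-04). Ptges, for a prostaglandin E synthase, was at 97.2, 114.9 and 109 cpm against 31.6 and 19.9 cpm (log2 2.05, adjusted p = 0.00536). These were the 2 of 17 leukotriene and prostaglandin genes that rose. Among 20 retinoid genes 5 rose, led by the retinol-binding protein gene Rbp2 at 50.1, 45.1 and 55.9 cpm against 4.74 and 5.72 cpm (9.63-fold, adjusted p = 3.4e-04), with Crabp2 and Lrat, which encodes the enzyme that esterifies retinol, rising by log2 2.31 and 2.65. Lrat lost its call without MC903 replicate 1 (adjusted p = 0.102). Of 27 barrier lipid genes none passed as higher, with 2 higher at an unadjusted p under 0.05 and 1 by DESeq2, and 3 fell, among them the lipoxygenase gene Alox12e at 24.7, 67.6 and 56.6 cpm against 326 and 249 cpm (log2 −2.54, adjusted p = 0.0104). In wild-type skin 11 of the 27 rose, where 5.25% of all genes did, against 1.31% of all genes in TSLPR KO skin.

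**Figure D3:**
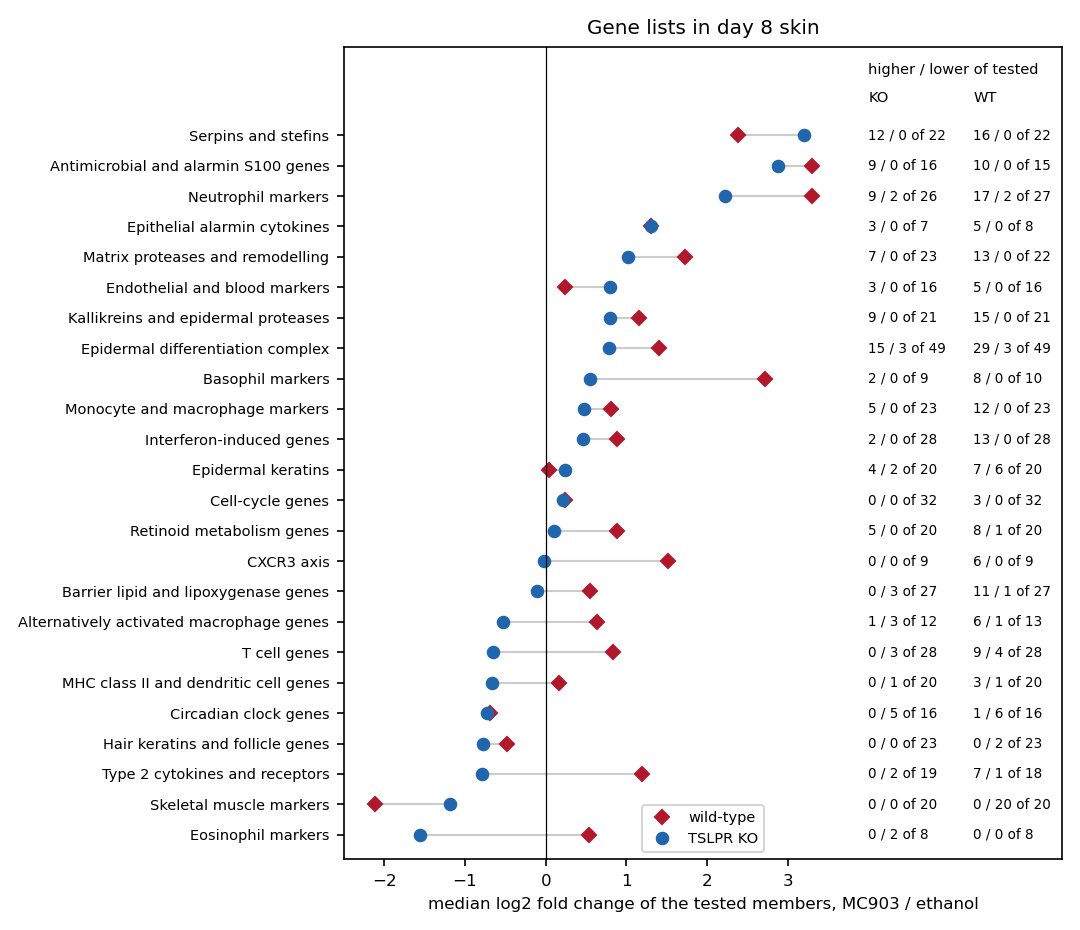
Median log2 fold change of MC903 over ethanol (x axis) over the tested members of 24 gene lists (rows) in day 8 TSLPR KO skin (blue circles) and lane-matched wild-type skin (red diamonds), with the numbers of members higher and lower at an adjusted p under 0.05 on the right. Serpins and stefins had the highest median in TSLPR KO skin (3.20), while type 2 genes lay at −0.79 in TSLPR KO and 1.19 in wild-type skin.

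The genes that fell with the smallest p included a serine protease inhibitor. Serpina3b was at 3.25, 5.49 and 2.79 cpm with MC903 and 119.3 and 55.3 cpm with ethanol (22.7-fold lower, adjusted p = 8.1e-04), and the neighbouring family member Serpina3j fell by log2 4.62. Mrgprb3, which encodes an orphan G protein-coupled receptor, was at 0.45, 0.557 and 0.0939 cpm against 16.2 and 9.52 cpm (34.4-fold lower, adjusted p = 0.00162). Sema3d, for a secreted axon guidance protein, was at 11.6, 10.3 and 14.3 cpm against 86.1 and 53.6 cpm (5.82-fold lower, adjusted p = 0.00162). Every MC903 library lay below both ethanol libraries for these genes. H2-M5 fell by log2 4.44, Tlr11 by 4.03, Ache, for acetylcholinesterase, by 2.92, Ndufa4l2 by 2.19 and Abca5, for a lipid transporter, by 2.17. In the wild-type, Tlr11 and Ndufa4l2 had log2 fold changes of −1.32 and −0.90 and did not pass, and the interaction values were −2.71 (adjusted p = 0.259) and −1.28 (adjusted p = 0.3).

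Circadian output genes were lower in 5 of 16 cases and none was higher, with a median of −0.73. Dbp, a transcription factor gene driven by the clock, was at 5.76, 7.82 and 6.11 cpm with MC903 and 38.8 and 24.4 cpm with ethanol (4.83-fold lower, adjusted p = 0.00344). Hlf fell by log2 2.26, Nr1d1 by 1.51, Tef by 1.28 and Per3 by 1.15. The hour of tissue collection is not given in the sources used here, and its part was not tested. Dbp passed in all 5 fits without a library, Hlf lost its call without MC903 replicate 1 (adjusted p = 0.0592). Nr1d1 lost its call without MC903 replicates 1 or 3 or ethanol replicate 1 (adjusted p up to 0.0964), and Tef and Per3 passed in a fit with 4 libraries only when ethanol replicate 2 was the one left out (adjusted p otherwise up to 0.0938 and 0.103).

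Of the genes that attract or mark neutrophils, some rose strongly. Cxcl1 and Cxcl5 encode chemokines for the receptor Cxcr2 on neutrophils: Cxcl1 was at 18.2, 7.16 and 3.16 cpm with MC903 and 0.205 and 0.357 cpm with ethanol (log2 5.07, SE 0.802, adjusted p = 0.0123), and Cxcl5 at 12.6, 22.4 and 4.07 cpm against 0.263 and 0.065 cpm (log2 6.25, SE 0.882, adjusted p = 0.00709). In wild-type skin Cxcl1 reached 1.23 and 1.05 cpm, and the difference between the effects did not pass (interaction log2 1.74, SE 1.28, adjusted p = 0.706). Cxcl2, named by the study, was at 8.94, 2.76 and 1.25 cpm against 0.38 and 0.0325 cpm (adjusted p = 0.0645). Thus 2 of 9 neutrophil chemokine genes passed, with a median of 2.80, or 0.81 with a gene absent from a group set at its bound. Cxcl1 lost its call without ethanol replicate 1 (adjusted p = 0.0738) and Cxcl5 without MC903 replicate 1 (adjusted p = 0.0739).

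Of 26 tested neutrophil markers 9 rose (5 to 9 without a library) and 2 fell (0 to 2), with a median of 2.23. Clec4d, a pattern receptor gene of myeloid cells, was at 7.59, 4.91 and 2.88 cpm with MC903 and 0.117 and 0.325 cpm with ethanol (log2 4.53, adjusted p = 0.00536). Trem1 was at 3.99, 2.6 and 1.53 cpm against 0.0585 and 0 cpm, a ratio of counts of 87.4 (24 to 725), and Csf3r, the receptor gene for granulocyte colony-stimulating factor, at 14.7, 11.7 and 8.64 cpm against 2.84 and 3.18 cpm (log2 1.96, adjusted p = 0.0117). The list does not mark neutrophils alone, since 4 of the 9 that rose are stefin genes that epidermis also expresses, and Ly6g, a defining marker, was at 0 to 0.0313 cpm in all 5 libraries. The summed level of the list was 1873, 1102 and 1039 cpm with MC903 and 603 and 575 cpm with ethanol. In whole skin, more cells of a type cannot be told apart from more RNA per cell. Csf3r lost its call without MC903 replicate 1 and without ethanol replicate 1 (adjusted p = 0.0589 and 0.065), and Trem1 had an adjusted p of 0.05 without MC903 replicate 1.

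Vessel and matrix genes moved with them. The endothelial adhesion genes Selp, Sele and Vcam1, through which leukocytes leave the blood, were the 3 of 16 endothelial and blood markers that rose (median 0.80). Selp was at 19.1, 18.8 and 21.2 cpm with MC903 and 3.22 and 2.96 cpm with ethanol (6.36-fold, adjusted p = 8.8e-04), and Vcam1 at 36.3, 30.3 and 34.6 cpm against 8.37 and 7.86 cpm (log2 2.05, adjusted p = 0.00211). Among 23 matrix genes 7 rose (4 to 6 without a library) and none fell (median 1.02), and the collagenase gene Mmp13 was at 51.2, 65.1 and 39 cpm against 1.46 and 0.715 cpm (46.9-fold, adjusted p = 3.7e-04). Mmp11 and the inhibitor gene Timp1 rose by log2 2.19 and 2.77. The 6 vessel and matrix genes passed whichever library was left out. None of 18 collagen genes and none of 32 cell-cycle genes passed, with medians of −0.12 and 0.21, and Mki67, a marker of proliferation, was at 165, 325 and 303 cpm with MC903 and 190 and 283 cpm with ethanol. At an unadjusted p under 0.05, 3 cell-cycle genes were higher and 1 collagen gene was lower, and DESeq2 called 0 of either list.

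Cytokines of the interleukin-20 family were also higher. Il24 was at 7.17, 5.09 and 1.66 cpm with MC903 and had no read in either ethanol library, so that it was at least 50.1-fold higher on a floor of 3 counts in each ethanol library (adjusted p = 0.00601). Il19 was at 12.1, 4.3 and 4.79 cpm against 0.38 and 0.195 cpm (log2 4.57, adjusted p = 0.0058). Il22ra2, which encodes a soluble decoy for interleukin-22, was at 1.16, 0.345 and 0.407 cpm against 12.4 and 6.04 cpm (log2 −3.88, adjusted p = 0.00594). Thus 2 of 19 genes of the interleukin-17, interleukin-22 and interleukin-20 axis rose and 3 fell, with a median of 0.49. Il24 lost its call without MC903 replicate 1 (adjusted p = 0.0592).

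Of 19 tested type 2 cytokines, chemokines and receptors none was called higher in TSLPR KO skin by the edgeR quasi-likelihood test. As 1.31% of all genes were called higher, no call among 19 genes is near the general share. Of the 19, 2 were lower, with a median of −0.79. At an unadjusted p under 0.05 there were 2 higher, and DESeq2 called 1 higher. Il4, given because the study names it, was at 1.03, 0.875 and 0.438 cpm with MC903 and 1.67 and 0.877 cpm with ethanol, against 2.27 and 7.17 cpm with MC903 and 0.728 to 1.31 cpm with ethanol in the wild-type. Il13 was at 0.193, 0.0796 and 0 cpm against 0.498 and 0.162 cpm. For both, the TSLPR KO groups overlapped. Ccr4, a receptor gene of type 2 T cells and skin-homing T cells, was at 3.06, 1.88 and 2.38 cpm against 9.57 and 9.35 cpm (log2 −1.96, adjusted p = 0.00861), and Gata3, whose product is also abundant in epidermis and hair follicle, fell by log2 1.10 (adjusted p = 0.0463, lost in each of the 5 fits without a library, with adjusted p up to 0.134). In wild-type skin 7 of 18 rose, where 5.25% of all genes did, and 1 fell, with a median of 1.19. In ethanol skin 17 of 19 had higher fitted levels in TSLPR KO than in wild-type, and none passed. The median log2 difference was 0.355, against −0.013 over all genes. A higher starting level in TSLPR KO skin makes the interaction more negative for the same MC903 levels, and its part was not tested. The interaction was negative for 19 of 19 genes, with a median of −0.96 against 0.02 over all genes. No single gene of the list passed the edgeR quasi-likelihood test. At an unadjusted p under 0.05 there were 7 negative, and DESeq2 called 3 negative. Such a lean was not particular to type 2 genes. The interaction was negative for 25 of 28 T cell genes, 25 of 27 barrier lipid genes and 20 of 22 keratinocyte junction genes. It was positive for 19 of 20 muscle genes. Members of a list can vary together, so they are not separate observations. For Il4 the interaction was −2.997 (SE 0.744, adjusted p = 0.259).

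Genes of alternatively activated macrophages, which interleukin-4 induces, fell in 3 of 12 cases and rose in 1. Retnla was at 7.82, 5.54 and 4.95 cpm with MC903 and 107 and 48.9 cpm with ethanol (12.9-fold lower, SE 0.354 on the log2 scale, adjusted p = 0.00112). Mgl2, a lectin gene of dermal macrophages and dendritic cells, was at 14.4, 18.3 and 20.4 cpm against 94.5 and 47.9 cpm (4.05-fold lower, adjusted p = 0.00991), and Cd209a fell by log2 1.31. Chil3 rose, at 3.92, 1.67 and 2.91 cpm against 0.439 and 0.26 cpm (log2 2.98, adjusted p = 0.0196). In the wild-type 6 of 13 genes of the list rose and 1 fell (median 0.635). Mgl2 was there at 39.9 and 50.5 cpm with MC903 and 39.2 to 48.5 cpm with ethanol, and its interaction value was −2.02 (SE 0.375, adjusted p = 0.116). The interaction was negative for 13 of 13 genes of the list (median −1.26), a lean also seen in other lists, and 10 were at an unadjusted p under 0.05. None passed the edgeR quasi-likelihood test, and DESeq2 called 5. In ethanol skin 7 of the 13 had higher fitted levels in TSLPR KO than in wild-type (median log2 difference 0.26), and none passed. Retnla passed in every fit, Mgl2 lost its call without MC903 replicate 1 (adjusted p = 0.0887). Cd209a lost its call without any one library except ethanol replicate 2 (adjusted p up to 0.237), and Chil3 without any one except MC903 replicate 2 (adjusted p up to 0.101). Among general monocyte and macrophage markers 5 of 23 rose (0 to 3 without a library) and none fell (median 0.48), led by Plac8 at log2 1.53 and Ms4a7 at 2.05, and both lost their calls without MC903 replicate 1 and without ethanol replicate 2 (adjusted p of 0.0653 to 0.0811).

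Basophils and eosinophils are recruited in type 2 inflammation. Mcpt8, the defining protease gene of basophils, which was chosen after its values were seen, was at 0.45, 0.053 and 0.282 cpm with MC903 and 0.0585 and 0.0325 cpm with ethanol in TSLPR KO skin, a ratio of counts of 5.37 (1.64 to 27.8), and at 12.6 and 15.5 cpm with MC903 and 0.0607 to 0.0911 cpm with ethanol in the wild-type. The 2 wild-type MC903 libraries lay far above all 5 TSLPR KO libraries, and the interaction was −5.02 (SE 1.43), which at an adjusted p of 0.309 did not pass. Fcer1a and Ifitm1, which are not limited to basophils, were the 2 of 9 basophil markers that rose (log2 2.97 and 2.05, adjusted p = 0.0255 and 0.0382), and each lost its call without MC903 replicate 1 and without ethanol replicate 2, Ifitm1 also without MC903 replicate 2 (adjusted p of 0.0757 to 0.154). The 10 listed basophil genes summed to 56.2, 34.1 and 28.7 cpm with MC903 and 24.8 and 13.6 cpm with ethanol, against 108.1 and 121.1 cpm with MC903 in the wild-type. Of 8 eosinophil-associated genes 2 fell, Ear2 (log2 −2.80, adjusted p = 0.0368) and Alox15 (log2 −1.98, adjusted p = 0.0421), and Epx, a defining marker, had no read in any of the 5 libraries. Both calls were lost without ethanol replicate 1 (adjusted p = 0.226 and 0.273) and, among other fits, without MC903 replicate 1 (0.217 and 0.1) and MC903 replicate 3 (0.0992 and 0.134), and that of Alox15 also without MC903 replicate 2 (0.131).

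No lymphocyte gene on the lists passed as higher in TSLPR KO skin by the edgeR quasi-likelihood test. As 1.31% of all genes did, no call in lists of 28 and 12 genes is near the general share. At an unadjusted p under 0.05, 1 T cell gene was higher, and DESeq2 called 1. Of 28 T cell genes none rose and 3 fell, Cd3e, Trdc and Ikzf2 (median −0.66), and of 12 natural killer and group 2 lymphoid genes Nkg7 and Prf1 fell (median −0.10). In wild-type skin 9 of the 28 T cell genes rose and 4 fell (median 0.83). Of the 12 natural killer and group 2 lymphoid genes 3 rose and 1 fell there, and of 20 dendritic cell genes 3 rose and 1 fell. Lower calls in these lists were thus not limited to TSLPR KO skin. All 28 T cell genes had higher fitted levels in TSLPR KO than in wild-type ethanol skin (median log2 difference 0.90, against −0.013 over all genes). Of the 28, 11 were at an unadjusted p under 0.05, as were 1514 of all 24112 genes tested, and none passed the adjusted threshold. Their summed level was 281 and 222 cpm in TSLPR KO ethanol replicates 1 and 2, and 192 to 210 cpm in wild-type ethanol skin. Cd3e, a chain of the T cell receptor complex, was at 1.93, 1.59 and 1.1 cpm with MC903 and 8.4 and 4.03 cpm with ethanol (log2 −2.02, adjusted p = 0.0332), and Trdc, of the gamma-delta receptor that epidermal T cells carry, at 1.13, 0.716 and 0.626 cpm against 5.5 and 2.27 cpm (log2 −2.26, adjusted p = 0.0384). Cd207, which encodes langerin of Langerhans cells, was the 1 of 20 dendritic cell genes that fell, at 0.515, 1.64 and 0.501 cpm against 10.2 and 6.14 cpm (9.05-fold lower, adjusted p = 0.0146). Each MC903 library lay below both ethanol libraries for these 3 genes. Every one of these calls was lost without MC903 replicate 1 (adjusted p of 0.0751 to 0.117). Each was also lost without ethanol replicate 1, with adjusted p of 0.23 for Cd3e, 0.312 for Trdc, 0.0674 for Cd207, 0.0738 for Ikzf2, 0.132 for Nkg7 and 0.287 for Prf1, and those of Cd3e, Trdc, Nkg7 and Prf1 without MC903 replicate 2 or 3 as well (0.0555 to 0.129), and that of Ikzf2 without MC903 replicate 3 (0.0514).

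The CXCR3 axis was examined because the study follows it in itch. Cxcl9, Cxcl10 and Cxcl11 encode interferon-induced ligands of the receptor Cxcr3. In wild-type skin 6 of the 9 genes of the list rose (median 1.52), where 5.25% of all genes did. None of the 9 passed in TSLPR KO skin, where 2.45% of all genes did, so no call among 9 genes is near that share. In TSLPR KO skin their median was −0.02, with 2 lower at an unadjusted p under 0.05 by edgeR and 0 called by DESeq2. Cxcl10 was at 15.7, 5.07 and 5.39 cpm with MC903 and 6.26 and 4.26 cpm with ethanol, against 6.43 and 17.3 cpm and 1.27 to 1.88 cpm in the wild-type. Cxcl11 was at 15.5, 1.51 and 1.72 cpm against 1.64 and 1.62 cpm. MC903 replicate 1 stood above the other 4 TSLPR KO libraries for both genes. The study reported that Cxcl10 was increased with MC903 in TSLPR KO skin, and by ELISA also its protein in skin homogenates. With 3 MC903 and 2 ethanol libraries, a change that did not pass here is not shown to be absent. Cxcr3 was at 0.74, 2.04 and 1.22 cpm with MC903 and 3.28 and 2.89 cpm with ethanol, and at 2.14 and 2.19 cpm and 0.607 to 0.774 cpm in the wild-type, with an interaction of −2.81 (SE 0.572, adjusted p = 0.169). The ethanol libraries of TSLPR KO skin were above those of wild-type skin for Cxcl10 and Cxcr3, with log2 differences of 1.70 and 2.11 that did not pass (adjusted p = 0.417 and 0.289). Of 28 interferon-induced genes 2 rose, Rsad2 by log2 1.57 and Ifit1 by 1.52, and both lost their calls without MC903 replicate 1 and without ethanol replicate 2, Rsad2 also without MC903 replicate 2 and Ifit1 without MC903 replicate 3 (adjusted p up to 0.0816 and 0.133). In wild-type skin 13 of 28 rose, where 5.25% of all genes did, against 1.31% of all genes in TSLPR KO skin.

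The test of whether the MC903 effect itself differed between TSLPR KO and wild-type skin called 5 of 25942 genes (0.0193%), all with a smaller or opposite effect in TSLPR KO skin. They were Sprr2a1, Sprr2a2 and Sprr2a3 of the small proline-rich family, Gzmb, which encodes the cytotoxic protease granzyme B of lymphocytes, and Slc6a14, which encodes an amino acid transporter of epithelia. At an unadjusted p under 0.05 there were 2451 genes, and the DESeq2 Wald test called 261. The direction depended on the processing: the effect was the more negative one in TSLPR KO skin for 140 of the 261 calls of DESeq2, for 140 of 387 with no filter on low counts and for 107 of 521 with a replicate block, and the more positive one for the others. Sprr2 genes are known as epithelial genes that type 2 cytokines can induce through the transcription factor STAT6.

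Sprr2a3 was at 42.9, 58 and 40.1 cpm with MC903 and 8.34 and 5.33 cpm with ethanol in TSLPR KO skin, and at 286 and 274 cpm with MC903 and 4.78, 2.55 and 2.37 cpm with ethanol in wild-type skin. It rose 6.85-fold in TSLPR KO and 86.97-fold in wild-type skin, a log2 difference of −3.66 (SE 0.421, adjusted p = 0.0127). For Sprr2a1 the levels were 201, 256 and 225 cpm against 28.2 and 17.1 cpm in TSLPR KO skin, and 1320 and 962 cpm against 16.5, 9.83 and 10.5 cpm in wild-type skin (log2 difference −3.21, SE 0.401, adjusted p = 0.0127). Sprr2a2 differed by −3.30 (SE 0.402, adjusted p = 0.0127). All 3 thus rose in both genotypes, and every TSLPR KO MC903 library lay below both wild-type MC903 libraries. These are not independent genes: the annotated spans of Sprr2a1 (chr3:92215799-92221911) and Sprr2a2 (chr3:92215920-92256724) overlap, Sprr2a3 lies at chr3:92285417-92291405, and reads could have been shared among the copies. Sprr2d, a further member on the list, had a difference of −3.20 (adjusted p = 0.0887).

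To show how alike the 3 copies are where transcription starts, their RefSeq promoters are printed with that of Retnla. They cover 250 bases before to 50 after the start (build GRCm38.p6, plus strand). Retnla, an interleukin-4 target, fell in TSLPR KO skin and was not among the 5 genes called between genotypes. Capitals mark the motif TTCNNNNGAA, which reads the same on both strands and has the spacing that STAT6 prefers. Promoters span chr3:92215585-92215884 for Sprr2a1, chr3:92250397-92250696 for Sprr2a2, chr3:92285054-92285353 for Sprr2a3 and chr16:48842359-48842658 for Retnla.
Sprr2a1: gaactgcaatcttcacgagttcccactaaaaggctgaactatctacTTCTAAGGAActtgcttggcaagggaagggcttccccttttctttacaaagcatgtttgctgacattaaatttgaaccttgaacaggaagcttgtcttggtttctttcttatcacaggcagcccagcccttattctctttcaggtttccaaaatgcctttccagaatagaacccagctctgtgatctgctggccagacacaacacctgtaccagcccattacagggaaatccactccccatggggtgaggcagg
Sprr2a3: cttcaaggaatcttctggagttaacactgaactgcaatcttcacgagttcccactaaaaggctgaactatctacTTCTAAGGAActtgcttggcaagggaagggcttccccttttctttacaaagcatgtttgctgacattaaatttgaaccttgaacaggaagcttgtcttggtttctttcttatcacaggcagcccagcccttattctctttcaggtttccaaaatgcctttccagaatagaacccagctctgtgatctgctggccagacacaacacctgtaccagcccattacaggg
Retnla: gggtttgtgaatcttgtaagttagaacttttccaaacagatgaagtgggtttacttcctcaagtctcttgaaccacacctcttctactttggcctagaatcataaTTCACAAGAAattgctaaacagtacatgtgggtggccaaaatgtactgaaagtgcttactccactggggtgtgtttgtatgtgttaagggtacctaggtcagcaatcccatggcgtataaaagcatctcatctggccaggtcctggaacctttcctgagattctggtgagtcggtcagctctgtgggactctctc
The promoter of Sprr2a2 was identical to that of Sprr2a1 in 300 of 300 bases and is not repeated. With an offset of 28 bases, Sprr2a3 matched Sprr2a1 in 272 of 272 shared bases. The motif began at −204 from the start in Sprr2a1 and Sprr2a2, at −176 in Sprr2a3 and at −145 in Retnla. It was present in 2284 of 32851 promoters in the table (6.95%), in 23 of 204 promoters found for genes that rose in TSLPR KO skin (11.3%) and in 17 of 205 for genes that fell (8.29%), against 6.83% for tested genes. A match of letters is not a bound site, and a part of STAT6 in the differences between genotypes was not tested.

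Gzmb and Slc6a14 differed in other ways. Gzmb was at 1.87, 2.12 and 1.5 cpm with MC903 and 1.61 and 1.62 cpm with ethanol in TSLPR KO skin, and at 4.28 and 8.07 cpm against 0.142, 0.273 and 0.25 cpm in wild-type skin (log2 difference −4.58, SE 0.535, adjusted p = 0.0127). In TSLPR KO skin the groups overlapped, and the ethanol libraries lay above those of the wild-type, a log2 difference of 2.82 that did not pass (adjusted p = 0.412). Slc6a14 was at 18.4, 16.2 and 12.9 cpm with MC903 and 48.8 and 30 cpm with ethanol in TSLPR KO skin (log2 −1.32, adjusted p = 0.0357), and at 71.2 and 154 cpm against 28.5, 25.2 and 29.1 cpm in wild-type skin (log2 2.03, adjusted p = 0.00163). It was thus lower with MC903 in the absence of the receptor and higher in its presence, with a difference of −3.34 (SE 0.417, adjusted p = 0.0127). Within TSLPR KO skin its call was lost without any one library except ethanol replicate 2 (adjusted p of 0.0979 to 0.199).

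The direction of the 5 differences held in every fit, while the calls did not. None passed without TSLPR KO MC903 replicate 1 (adjusted p = 0.0641 for all 5), without wild-type MC903 replicate 2 (0.0847 to 0.092) or without wild-type ethanol replicate 2 (0.0779 for all 5), and without TSLPR KO ethanol replicate 1 Sprr2a1 and Slc6a14 did not (0.0558). Without wild-type MC903 replicate 1 the Sprr2a genes did not pass (0.0831 to 0.113), and without TSLPR KO ethanol replicate 2 all 5 did and 83 genes were called. With the 6 other wild-type libraries in place of the lane-matched ones, the 3 Sprr2a genes passed (log2 differences of −3.996, −4.04 and −4.25 for Sprr2a1, Sprr2a2 and Sprr2a3, adjusted p of 0.0202, 0.0202 and 0.0184), and Gzmb (−6.13, adjusted p = 0.0549) and Slc6a14 (−3.76, adjusted p = 0.0978) did not.

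**Figure D4:**
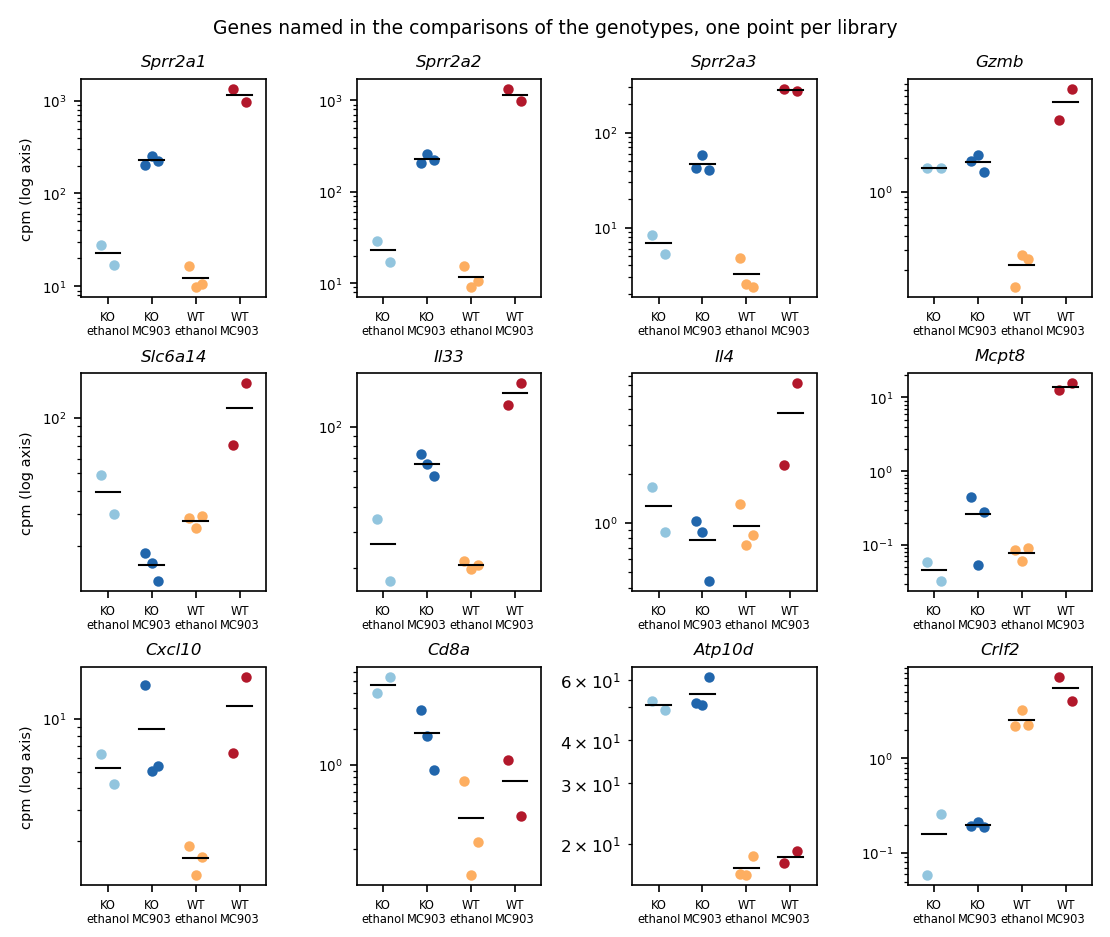
Level in cpm (y axis, log scale, each panel with its own range) of 12 genes named in the comparisons between genotypes, in TSLPR KO ethanol (2 libraries), TSLPR KO MC903 (3), lane-matched wild-type (WT) ethanol (3) and WT MC903 (2) skin at day 8. Points are libraries and black bars group means. The 3 Sprr2a genes reached lower levels in TSLPR KO than in WT MC903 skin, Slc6a14 moved in opposite directions, Atp10d was higher and Crlf2 lower in all 5 TSLPR KO libraries.

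Vehicle-treated skin of the 2 genotypes was compared to give the starting level. Of 24112 genes, 5 passed (0.0207%), 1 higher and 4 lower in TSLPR KO skin. With all 6 wild-type ethanol libraries 5 passed as well, 4 higher and 1 lower. Atp10d (chr5:72203329-72298775), for a phospholipid flippase, lies on the same chromosome as Crlf2 and is annotated as a polymorphic pseudogene. It was at 52.1 and 49 cpm with ethanol in TSLPR KO skin against 16.3, 16.2 and 18.5 cpm in wild-type skin (2.92-fold, SE 0.158 on the log2 scale, adjusted p = 0.0496), and at 50.9 to 61 cpm with MC903 against 17.5 and 19.1 cpm. The other 6 wild-type libraries were at 14.7 to 18.4 cpm, so that all TSLPR KO day 8 libraries lay above all 11 wild-type ones, and with all 6 wild-type ethanol libraries in the fit the adjusted p was 0.00252.

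The 4 lower genes were Plac9a, Plac9b, Gm9780 and Gm16867 on chromosome 14, of which the first 3 are near-identical copies. Plac9a (chr14:25887506-25903100) was at 4.62 and 4.22 cpm in TSLPR KO ethanol skin against 30.2, 21.5 and 29 cpm in the lane-matched wild-type (6.19-fold lower, adjusted p = 0.0405). In the ethanol libraries of the other wild-type series it was at 6.66, 3.64 and 5.05 cpm, as low as in TSLPR KO skin. With all 6 wild-type ethanol libraries none of the 4 passed (Plac9a adjusted p = 1). All 5 calls were lost with a stricter filter on low counts (adjusted p = 0.0526 for each) and without each ethanol library except wild-type replicate 3, without which 106 genes were called. Cd8a, a marker of cytotoxic T cells chosen after its values were seen, was at 4.01 and 5.39 cpm in TSLPR KO ethanol skin and at 0.739, 0.121 and 0.228 cpm in wild-type ethanol skin (log2 3.66, SE 0.606), and the adjusted p was 0.4.

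Between day 8 and day 12 of treatment, the MC903 effect in TSLPR KO skin was not shown to differ for any gene. The edgeR quasi-likelihood test of the interaction called 0 of 26971 genes (0%), with a lowest adjusted p of 0.158, while 2028 genes had an unadjusted p under 0.05 and the DESeq2 Wald test called 149. Without day 12 ethanol replicate 2, 52 genes passed. Within day 12, of 25432 genes 1375 were higher (5.41%) and 1175 lower (4.62%), and these included 437 (73.6%) of the 594 calls of day 8, 436 in the same direction, which made up 17.1% of the day 12 calls. Day and library series cannot be told apart, so levels were not compared between the days. Day 12 skin held glandular RNA, with summed levels of the glandular markers of 9416 to 51310 cpm with MC903 and 19370 to 229311 cpm with ethanol, against 7.73 to 53.6 cpm in TSLPR KO skin at day 8. The 10 most abundant genes took 19.5% and 25.03% of the reads on genes in 2 of the day 12 ethanol libraries. The part of this RNA in the day 12 values was not tested.

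The effects within each day are given side by side for genes named above. Sprr2a3 rose by log2 2.78 at day 8 and by 5.52 at day 12, where its levels were 751, 490, 983 and 742 cpm with MC903 and 26.8, 15.8 and 5.33 cpm with ethanol. Retnla fell by log2 3.69 at day 8 and by 4.33 at day 12, and Tslp rose by 6.76 and 5.36. Slc6a14 was lower with MC903 on both days, by log2 1.32 and 0.78. Cxcl1, with a log2 fold change of 5.07 at day 8, had 0.01 at day 12, which did not pass. Of the 32 cell-cycle genes 26 rose at day 12 (median 1.33), against 0 at day 8 (median 0.21). None of these differences between days passed.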

How the data were processed

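Counts of reads per gene were made by the authors, who aligned single-end poly(A) reads of skin RNA to mm10 with Bowtie2 and TopHat and counted with htseq-count, and deposited them without normalization. The strand setting is not given in the sources used here, so a gene and an overlapping or antisense gene may share reads. Each library listed 46078 genes, of which 45229 identifiers matched GENCODE M21 (GRCm38), and 5 tally lines were left out of library sizes. From the counts, 23 libraries were used, with 27210839 to 49646775 reads on genes, so that 3 counts corresponded to 0.0604 to 0.110 cpm. Genes with at least 10 counts over the fitted libraries were tested with the quasi-likelihood F test of edgeR 4.0.16 (limma 3.58.1, R 4.3.3) after trimmed mean of M-values scaling, with Benjamini-Hochberg adjustment over all genes tested and a threshold of 0.05. The edgeR fits, but not the other steps, were tested on simulated counts with known fold changes. The 4 comparisons were MC903 against ethanol in TSLPR KO skin at day 8, its difference from the effect in lane-matched wild-type skin and from the effect at day 12, and ethanol skin of both genotypes. Intervals of count ratios are exact at 95% and cover counting error only.

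The members and gene lists were chosen with earlier results of these data known. Named genes were Crlf2, up to 6 members of a list (those past the threshold with the smallest p, then those with the highest level), and up to 12 protein-coding genes per direction and comparison with the smallest p and groups that did not overlap. Il4, Il13, Il33, Cxcl2 and the CXCR3 axis were added because the study names them. Alternatives were other size factors, the DESeq2 1.42.0 Wald test, other filters, left-out libraries, a replicate block and other sets of libraries. Wild-type skin at day 12 and injected mice were not used here. No library pair held identical counts. Groups came from the labels. A result on 1 gene is not reported here.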

Additional observations from a re-analysis of the deposited data

Results flagged for a closer look

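The MC903 effect at day 8 differed between TSLPR KO and lane-matched wild-type skin for 5 genes by the interaction term of the edgeR quasi-likelihood test, each with an adjusted p of 0.0127. The log2 difference, TSLPR KO minus wild-type, was −3.21 for Sprr2a1, −3.30 for Sprr2a2, −3.66 for Sprr2a3, −4.58 for Gzmb and −3.34 for Slc6a14. The 3 Sprr2a genes are near-identical copies and count as 1 observation as far as reads were shared. No group held enough libraries for a search for single outlying ones within the day 8 TSLPR KO skin.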

How the results depend on the processing

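The 594 calls of TSLPR KO skin at day 8 became 1313 with the DESeq2 Wald test (640 higher, 673 lower), 1401 with no filter on low counts and 1072 in a joint fit with the wild-type libraries, where 45.1% were higher. Leaving out 1 library gave 179 to 822. The 5 differences between genotypes became 261 with DESeq2 (140 more negative in TSLPR KO skin), 387 with no filter (140), 48 with all wild-type libraries and a term for their series, 26 with the other wild-type series, and 0 to 83 without 1 library: 0 without TSLPR KO MC903 replicate 1, wild-type MC903 replicate 2 or wild-type ethanol replicate 2, 2 without wild-type MC903 replicate 1, 9 without TSLPR KO MC903 replicate 3, 16 without wild-type ethanol replicate 3 and 83 without TSLPR KO ethanol replicate 2. The 0 calls between days became 149 with DESeq2, 4 with no filter and 0 to 52 without 1 library (1 without day 12 ethanol replicate 1 and 52 without day 12 ethanol replicate 2). The 5 calls between ethanol skins became 82 with DESeq2, 0 with the stricter filter, 30 with no filter, 10 in a joint fit with the MC903 libraries and 0 to 106 without 1 library. The cause of these shifts was not tested. Size factors of DESeq2 moved no count by over 1.5 times. Of 108 genes followed one by one in the day 8 comparison none reversed under these alternatives, and 412 of their values in fits without 1 library kept their side of the threshold, 1 newly passed and 23.5% lost the call. With 2 ethanol libraries, the spread of that group rests on a single difference.

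Whether replicate numbers pair the libraries could not be decided. Deviations of same-numbered MC903 and ethanol libraries correlated by 0.121 and 0.033 in TSLPR KO and by −0.039 and 0.006 in wild-type skin. In a group of 2 libraries the deviations from the mean are mirror images, so these values cannot tell paired from unpaired libraries. With a replicate block the counts were 1274 for MC903 in TSLPR KO skin, 521 between genotypes (107 more negative in TSLPR KO skin), 6 between days and 286 between ethanol skins.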
